A study of Mus musculus with 12 samples.

Results

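The 27 genes described here make cholesterol, sense it or move it, and their messenger RNA was compared between knockout and wild type mice in heart and kidney. The knockout removes mENT1, the product of Slc29a1, a membrane protein through which nucleosides such as adenosine cross by facilitated diffusion. The genes were chosen by name: array probes were kept where the gene name or a known synonym was in the set, which gave 56 of the 41174 probes and 27 of the 27670 named genes on the array. They fell into 3 roles. The first was 18 synthesis enzymes and other targets of the transcription factor SREBP2, the second 4 regulators (Srebf1, Srebf2, Scap, Insig2), and the third 5 genes of efflux, storage and transport (Soat1, Npc1, Abca1, Abcg1, Lcat). The groups were KO heart (mENT1 knockout), WT heart, KO kidney (mENT1 knockout) and WT kidney, each with 3 arrays lettered a, b and c and all on the FVB/N background. The design text gives 3 knockout and 3 wild type mice, but the letters do not tie a heart to a kidney of the same mouse. Age, sex, diet, the time of tissue collection and the deleted stretch of Slc29a1 were not given in the sources used here. Each RNA sample was hybridised with a single dye (Cy3) to one Agilent mouse array. A value below is log2 signal relative to the 75th percentile of the probes of its array, so 0 is that percentile and a difference of 1 is a doubling, and it may be set against another array for the same gene but not against another gene.

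Cells make cholesterol from acetyl-CoA through mevalonate, isoprenoid diphosphates, squalene and lanosterol. When membrane sterol is low, SCAP escorts the precursor of SREBP2 out of the endoplasmic reticulum, and the released factor switches on nearly every enzyme of the path; INSIG proteins hold SCAP back when sterol is plentiful. Surplus sterol is esterified by Soat1 or exported by Abca1 and Abcg1, which answer to oxysterol receptors and so tend to run against the synthesis genes.

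Promoter sequences in the RefSeq table (build GRCm38.p6, 250 bases before to 50 after each start site) were matched for 21 members. Abcg1, Sqle, Npc1, Stard4, Fdps and Fdft1 were the members without an entry. The core of a sterol regulatory element, searched as TCACNCCAC on both strands, was present in Hmgcs1 only, which is 1 of the 14 synthesis members with a window (7.14%); it was in 1.44% of the 27025 genes in the table. The motif CCAAT, searched on both strands, was in 14 of those 14 synthesis members, in 3 of 4 regulators and in 2 of 3 efflux and storage members, against 41.1% of all genes. GGGCGG, also on both strands, was in 13 of 14, 4 of 4 and 2 of 3, against 38.2%. Each motif was searched on its own, and where 2 of them shared bases both were counted. A match is a description of the letters, and the absence of one says only that they are not in this window.

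Stretches before 5 start sites are shown: Hmgcs1 as the holder of the sterol element core, and, chosen for contrast with their values known, 2 members with far lower signal in heart (Cyp51, Idi1), the synthesis member with the most CCAAT motifs in the stretch shown (Mvk) and an efflux member without one (Abca1). Hmgcs1 is at chr13:119690171-119690350 (plus strand), Cyp51 at chr5:4104698-4104817 (minus strand), Idi1 at chr13:8885486-8885605 (plus strand), Mvk at chr5:114444089-114444268 (plus strand) and Abca1 at chr4:53159896-53160015 (minus strand). They are printed 5′ to 3′ on the strand of the gene and end at the base before the start site. Capitals mark CCAAT or its reverse complement and, in Hmgcs1, also the sterol element core.
Hmgcs1: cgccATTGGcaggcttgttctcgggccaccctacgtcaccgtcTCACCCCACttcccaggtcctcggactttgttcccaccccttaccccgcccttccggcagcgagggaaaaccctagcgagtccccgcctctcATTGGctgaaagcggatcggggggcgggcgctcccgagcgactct
Cyp51: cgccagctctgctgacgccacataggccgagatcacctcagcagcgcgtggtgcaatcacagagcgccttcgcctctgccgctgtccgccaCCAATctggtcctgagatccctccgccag
Idi1: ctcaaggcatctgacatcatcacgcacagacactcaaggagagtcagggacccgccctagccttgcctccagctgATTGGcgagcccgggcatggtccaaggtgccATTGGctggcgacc
Mvk: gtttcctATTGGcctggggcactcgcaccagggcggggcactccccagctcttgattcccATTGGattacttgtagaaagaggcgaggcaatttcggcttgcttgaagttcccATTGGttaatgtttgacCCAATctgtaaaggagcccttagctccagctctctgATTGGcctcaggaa
Abca1: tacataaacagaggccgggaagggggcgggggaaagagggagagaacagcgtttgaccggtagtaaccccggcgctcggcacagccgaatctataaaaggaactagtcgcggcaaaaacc
In Hmgcs1 the core stands at position -137 from the start site, between CCAAT motifs at -176 and -45. Mvk carries 5 CCAAT motifs in the stretch shown, Idi1 2, Cyp51 1 and Abca1 none.

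Slc29a1 signal was 1.38, 0.59 and 1.53 in KO hearts against 3.15, 3.23 and 3.36 in WT hearts. In KO kidneys it was -1.43, -1.30 and -1.43, against 1.51, 1.27 and 1.62 in WT kidneys. The scanner files thus carry lower Slc29a1 in the arrays labelled knockout, with a difference of -2.08 ± 0.26 in heart (SE; limma adjusted p = 0.0362) and -2.85 ± 0.16 in kidney (adjusted p = 0.00552). The authors' deposited table of log2 values goes the other way: every one of its 12 columns followed the scanner file of the opposite genotype that shared its tissue and letter (r at least 0.99988 across probes, which are not independent replicates). All directions below follow the scanner files and would turn round within a tissue if the table's labels were right.

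Several arrays stood apart. All 8 heart muscle markers were well above background on every heart array, and all 8 kidney tubule markers on every kidney array. On KO heart a the summed signal of 6 lung markers was 7.69, against -2.32 to -2.02 on the other KO hearts and -3.68 to 0.54 on WT hearts. The summed signal of 8 thymus and T cell markers was 6.54 and 7.58 on KO hearts a and b, against -0.45 on KO heart c and -1.18 to -0.32 on WT hearts. KO kidney a alone carried adrenal cortex markers (summed signal 3.44, 6 of 6 measured genes above background, against -2.37 to -2.17 on the other KO kidneys and -2.36 to -0.94 on WT kidneys). Xist was bright and Y-linked genes were dim on KO hearts a and b and on KO kidney a, and the reverse held on the other 9 arrays. If each of the 3 knockout mice gave both organs, as the design text can be read, 2 hearts but 1 kidney with Xist signal do not match it, so which knockout mice the tissue comparison set side by side is uncertain. KO hearts shared a slide with 1 WT kidney and WT hearts filled another, so genotype and slide cannot be told apart in heart. In whole-tissue RNA, fewer cells of a type and less RNA per cell cannot be told apart either.

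Between the tissues, most of the synthesis path was low in heart and high in kidney, while the efflux transporters were higher in heart. In knockout mice 13 of 18 synthesis members were lower in heart and none was higher; in wild type mice 12 were lower and 1 was higher (limma, Benjamini-Hochberg adjusted p under 0.05 over all genes tested). Of all genes tested, 24.1% were lower and 29.5% higher in KO heart than in KO kidney, and 30.3% were lower and 34.2% higher in WT heart than in WT kidney. The median difference of the synthesis members was -1.70 in knockout and -1.78 in wild type mice, beside 0.11 and 0.07 for all genes. Over all genes in knockout mice, 5335 were called higher and 4366 lower in heart, a split that became 3962 and 5553 with array median scaling and 1383 and 1760 with normexp background correction. Abca1, Abcg1 and Npc1 were higher in heart in both genotypes, and every heart lay above every kidney for each. In knockout mice these 3 calls were lost with normexp background correction (adjusted p = 0.104 for Abca1, 0.0748 for Abcg1 and 0.163 for Npc1), each was lost when some single arrays were left out, and without the arrays with Xist signal Abcg1 differed by 0.61 (adjusted p = 0.157). In wild type mice the Npc1 call was lost with array median scaling (adjusted p = 0.176), without a filter and with the letter as a block. It was also lost without WT heart b, WT heart c, WT kidney a or WT kidney c. The median of the 4 measured efflux, storage and transport members was 0.85 in knockout and 0.65 in wild type mice. Within a genotype no slide held both tissues, so a slide block cannot separate slide from tissue. With slide as a random block 16 of the 18 knockout calls and all 19 wild type calls passed. The fitted correlation within a slide was 0.22 in knockout and -0.05 in wild type mice, so in the latter the block changed little. The calls lost were Abcg1 (adjusted p = 0.0571) and Mvk (adjusted p = 0.0648). The next paragraphs give the arrays behind these counts in the order of the path.

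**Figure D1:**
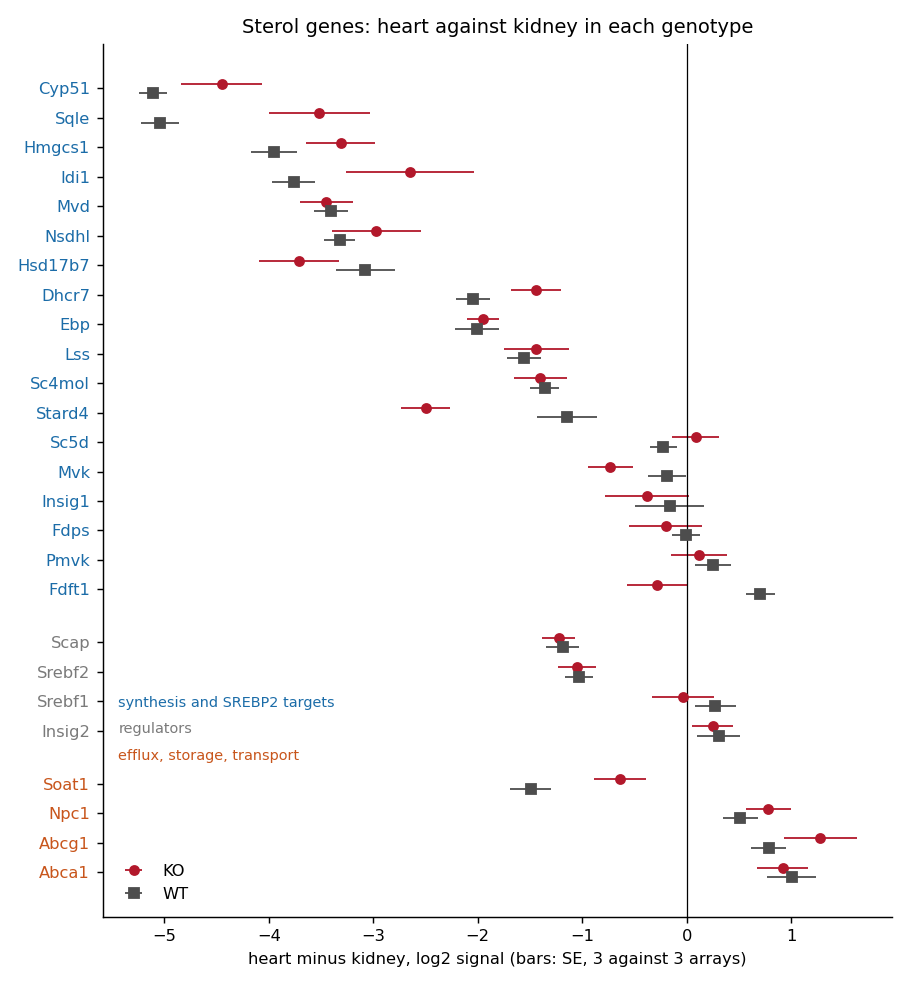
Heart minus kidney difference in log2 signal for the 26 tested members, in KO (circles) and WT mice (squares), with SE from 3 against 3 arrays; gene names are coloured by role. Cyp51, Sqle, Hmgcs1, Idi1, Mvd, Nsdhl and Hsd17b7 lie at -2.65 or below in both genotypes, whereas Abca1, Abcg1 and Npc1 lie above 0.

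The early path opens with Hmgcs1, the synthase that makes hydroxymethylglutaryl-CoA, and its signal was 3.77, 2.75 and 2.95 in KO hearts against 6.13, 6.46 and 6.82 in KO kidneys, and 3.08, 2.46 and 2.66 in WT hearts against 6.59, 7.02 and 6.44 in WT kidneys. Every heart array lay below every kidney array, a difference of -3.31 ± 0.33 in knockout (adjusted p = 0.000339) and -3.95 ± 0.22 in wild type mice (adjusted p = 4.54e-06), or 9.94-fold and 15.5-fold lower in heart. Mvk and Pmvk phosphorylate mevalonate in turn. Mvk signal was -0.46, -1.03 and -0.68 in KO hearts against 0.11, -0.21 and 0.13 in KO kidneys, and -0.65, -0.53 and -0.60 in WT hearts against -0.20, -0.76 and -0.25 in WT kidneys. The groups did not overlap in knockout mice (-0.73 ± 0.21, adjusted p = 0.028, lost with slide as a random block, with normexp and without any of 4 single arrays) but did in wild type mice, where the difference was -0.19 ± 0.18 and did not pass (adjusted p = 0.392). Pmvk had 3.45, 2.50 and 3.01 in KO hearts against 2.88, 2.74 and 2.97 in KO kidneys, and 2.91, 2.55 and 2.78 in WT hearts against 2.52, 2.70 and 2.25 in WT kidneys. Its groups overlapped in both genotypes. Mvd, which decarboxylates the product to isopentenyl diphosphate, had -0.33, -0.91 and -0.76 in KO hearts against 2.44, 2.80 and 3.11 in KO kidneys, and -0.99, -0.98 and -0.67 in WT hearts against 2.57, 2.67 and 2.33 in WT kidneys. That was about the same gap in knockout (-3.45 ± 0.25, adjusted p = 0.0001) and wild type mice (-3.41 ± 0.16, adjusted p = 1.92e-06), a 10.9-fold and a 10.6-fold lower signal in heart.

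Idi1 isomerises isopentenyl diphosphate, and its probes carry coordinates on chromosome 2 in the files although RefSeq places the gene on chromosome 13. Idi1 signal was 1.37, 0.82 and 0.12 in KO hearts against 2.17, 3.70 and 4.39 in KO kidneys, and -0.03, -0.41 and -0.58 in WT hearts against 3.18, 3.72 and 3.38 in WT kidneys. Hearts lay below kidneys without overlap, with a difference of -2.65 ± 0.61 in knockout (adjusted p = 0.0118) and -3.76 ± 0.21 in wild type mice (adjusted p = 3.95e-06), but KO hearts and KO kidneys both spread widely. Fdps joins the isoprenoid units into farnesyl diphosphate, and its signal was 2.48, 1.68 and 1.65 in KO hearts against 2.63, 1.60 and 2.18 in KO kidneys, and 1.34, 1.33 and 1.49 in WT hearts against 1.51, 1.26 and 1.41 in WT kidneys; the tissues overlapped, with differences of -0.20 ± 0.35 and -0.01 ± 0.14. Fdft1, the squalene synthase, had 1.10, 0.32 and 1.14 in KO hearts against 1.32, 0.82 and 1.27 in KO kidneys, and 1.01, 0.89 and 1.17 in WT hearts against 0.37, 0.23 and 0.36 in WT kidneys. It did not pass in knockout mice (-0.29 ± 0.29, adjusted p = 0.433), and in wild type mice it was the only synthesis member called higher in heart (0.70 ± 0.14, adjusted p = 0.00304). A dimmer second Fdft1 probe was lower in heart in both genotypes (-1.39 in knockout, -1.18 in wild type mice), so the direction of Fdft1 depends on the probe.

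Sqle oxidises squalene and is a main control point of the path. Its signal was 0.40, -0.47 and -1.54 in KO hearts against 2.85, 2.82 and 3.27 in KO kidneys, and -1.80, -2.25 and -2.19 in WT hearts against 2.75, 3.17 and 2.96 in WT kidneys. The heart was 11.4-fold lower in knockout (-3.52 ± 0.48, adjusted p = 0.00133) and 33.0-fold lower in wild type mice (-5.04 ± 0.18, adjusted p = 5.64e-07), and no heart array reached a kidney array. Lss closes the ring to lanosterol, and its signal was -1.19, -2.17 and -2.03 in KO hearts against -0.11, -0.65 and -0.32 in KO kidneys, and -1.68, -2.02 and -2.14 in WT hearts against -0.42, -0.29 and -0.46 in WT kidneys. The difference was -1.44 ± 0.31 in knockout (adjusted p = 0.00868) and -1.56 ± 0.16 in wild type mice (adjusted p = 0.000109).

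Lanosterol is then demethylated, first by Cyp51. Cyp51 had -1.54, -2.55 and -2.27 in KO hearts against 2.99, 2.06 and 1.94 in KO kidneys, and -2.76, -2.84 and -2.58 in WT hearts against 2.41, 2.44 and 2.31 in WT kidneys, which gave the lowest heart to kidney ratio of all members in both genotypes (-4.45 ± 0.39, adjusted p = 0.000193, and -5.11 ± 0.14, adjusted p = 1.29e-07). In wild type mice that order holds for the brightest Cyp51 probe only, since the others gave -4.94 and -4.26, against -5.04 for Sqle. The next demethylations need Sc4mol (now named Msmo1), Nsdhl and Hsd17b7. Sc4mol signal was 2.23, 1.51 and 1.70 in KO hearts against 3.22, 2.96 and 3.46 in KO kidneys, and 1.65, 1.49 and 1.33 in WT hearts against 2.82, 2.90 and 2.82 in WT kidneys. It was lower in heart by a similar amount in knockout (-1.40 ± 0.25, adjusted p = 0.00417) and wild type mice (-1.36 ± 0.14, adjusted p = 0.000102). Nsdhl, an X-linked gene, had -0.09, -1.58 and -1.04 in KO hearts against 2.02, 1.67 and 2.51 in KO kidneys, and -1.29, -1.31 and -1.58 in WT hearts against 1.82, 1.78 and 1.76 in WT kidneys on its probe with the highest mean over all 12 arrays. The difference was -2.97 ± 0.42 in knockout (adjusted p = 0.00154) and -3.32 ± 0.15 in wild type mice (adjusted p = 1.38e-06), where the test used another probe of the gene. That other probe read -5.80 on KO kidney a, against 1.93 to 2.85 on the other 5 kidney arrays. Hsd17b7 signal was -2.42, -3.04 and -2.84 in KO hearts against 0.14, 1.41 and 1.27 in KO kidneys, and -2.96, -2.89 and -3.39 in WT hearts against -0.31, -0.32 and 0.60 in WT kidneys, lower in every heart than in any kidney (-3.71 ± 0.38 in knockout, adjusted p = 0.000384; -3.07 ± 0.28 in wild type mice, adjusted p = 5.67e-05).

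The last steps move and reduce double bonds. The isomerase Ebp, also X-linked, had 3.98, 4.04 and 3.98 in KO hearts against 6.09, 5.86 and 5.90 in KO kidneys, and 3.91, 3.76 and 3.79 in WT hearts against 5.65, 6.27 and 5.57 in WT kidneys, with a difference of -1.95 ± 0.15 in knockout (adjusted p = 0.000137) and -2.01 ± 0.21 in wild type mice (adjusted p = 0.000108). Sc5d, a desaturase, had 1.70, 1.07 and 1.06 in KO hearts against 1.22, 1.08 and 1.26 in KO kidneys, and 0.89, 0.66 and 0.75 in WT hearts against 0.93, 1.06 and 0.98 in WT kidneys. Its difference was small in knockout (0.09 ± 0.23, adjusted p = 0.773) and in wild type mice (-0.22 ± 0.13, adjusted p = 0.178). A dimmer second Sc5d probe went the other way in wild type mice, higher in heart by 0.56 without overlap. Dhcr7, the final reductase, had 1.69, 1.17 and 1.03 in KO hearts against 2.65, 2.57 and 2.99 in KO kidneys, and 0.89, 0.78 and 0.83 in WT hearts against 2.99, 3.06 and 2.59 in WT kidneys, lower in heart, with a difference of -1.44 ± 0.24 in knockout (adjusted p = 0.00295) and -2.04 ± 0.16 in wild type mice (adjusted p = 2.64e-05). The other SREBP2 targets behaved unlike each other: Insig1, the feedback brake on SCAP, did not pass (-0.38 ± 0.41 in knockout and -0.16 ± 0.33 in wild type mice), with KO hearts at 0.63, -0.75 and -0.41, KO kidneys at 0.63, -0.15 and 0.14, WT hearts at -0.21, -1.02 and -0.82 and WT kidneys at -0.22, -1.18 and -0.15. Stard4, a carrier that moves sterol between membranes, had -1.91, -2.22 and -1.64 in KO hearts against 0.30, 0.85 and 0.57 in KO kidneys, and -1.51, -1.77 and -2.07 in WT hearts against -0.68, -1.14 and -0.08 in WT kidneys. Hearts lay below kidneys in both genotypes, with differences of -2.50 ± 0.23 (adjusted p = 0.000262) and -1.15 ± 0.29 (adjusted p = 0.00966).

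Among the regulators, the SREBP2 gene Srebf2 had 3.19, 3.37 and 2.94 in KO hearts against 4.30, 4.08 and 4.27 in KO kidneys, and 2.91, 2.85 and 3.07 in WT hearts against 3.93, 3.96 and 4.04 in WT kidneys. It was lower in heart, with a difference of -1.05 ± 0.18 in knockout (adjusted p = 0.00355) and -1.03 ± 0.13 in wild type mice (adjusted p = 0.000327). Scap, the escort of SREBP, had 3.88, 3.90 and 4.05 in KO hearts against 5.04, 5.21 and 5.26 in KO kidneys, and 3.995, 4.02 and 4.18 in WT hearts against 5.31, 5.43 and 5.03 in WT kidneys, a difference of -1.23 ± 0.16 (adjusted p = 0.00102) and -1.19 ± 0.16 (adjusted p = 0.000365). Both genes thus read 2.04-fold to 2.34-fold lower in heart, with no overlap between tissues. Srebf1, whose product drives fatty acid synthesis, had 4.57, 3.76 and 3.95 in KO hearts against 4.02, 3.84 and 4.53 in KO kidneys, and 4.11, 3.50 and 3.82 in WT hearts against 3.71, 3.36 and 3.53 in WT kidneys, and Insig2, the second retention protein, had 2.47, 2.38 and 2.89 in KO hearts against 2.44, 2.31 and 2.26 in KO kidneys, and 2.96, 2.91 and 2.89 in WT hearts against 2.48, 3.04 and 2.31 in WT kidneys. For neither did the tissues differ at the threshold in either genotype (lowest adjusted p = 0.225).

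Abca1 exports cholesterol to lipid-poor apolipoprotein, and its signal was 0.98, 0.77 and 1.15 in KO hearts against 0.46, -0.01 and -0.31 in KO kidneys, and 1.66, 1.36 and 0.80 in WT hearts against 0.26, 0.42 and 0.11 in WT kidneys. It was higher in every heart than in any kidney (0.92 ± 0.24 in knockout, adjusted p = 0.0197; 1.01 ± 0.23 in wild type mice, adjusted p = 0.00709). Abcg1, which exports cholesterol to lipoprotein particles, had 1.76, 1.37 and 0.51 in KO hearts against -0.00, -0.35 and 0.15 in KO kidneys, and 0.70, 0.62 and 0.25 in WT hearts against -0.13, -0.29 and -0.37 in WT kidneys, a difference of 1.28 ± 0.35 (adjusted p = 0.0215) and 0.79 ± 0.17 (adjusted p = 0.00463). Npc1 releases cholesterol from lysosomes. Its signal was 0.10, 0.04 and 0.40 in KO hearts against -0.91, -0.59 and -0.32 in KO kidneys, and 0.21, 0.35 and 0.66 in WT hearts against -0.13, 0.04 and -0.24 in WT kidneys, higher in heart by 0.78 ± 0.22 in knockout (adjusted p = 0.0234) and 0.51 ± 0.17 in wild type mice (adjusted p = 0.0301). Soat1, the esterifying enzyme, went with the synthesis genes on its brightest probe: 1.70, 1.86 and 1.24 in KO hearts against 2.54, 1.95 and 2.24 in KO kidneys, and 1.53, 1.24 and 1.06 in WT hearts against 3.05, 2.75 and 2.52 in WT kidneys. It did not pass in knockout mice (-0.64 ± 0.25, adjusted p = 0.0704) and was lower in heart in wild type mice (-1.49 ± 0.20, adjusted p = 0.000366). A Soat1 probe that the files place on chromosome 7, not on the chromosome 1 of the gene, went the opposite way (1.61 in knockout and 1.35 in wild type mice). In knockout mice a dimmer probe placed on chromosome 1 also had a higher mean in heart. It read -2.19, -2.09 and -2.50 in KO hearts against -3.71, -1.95 and -1.98 in KO kidneys, so only KO kidney a lay below the hearts. Lcat, which esterifies cholesterol on lipoproteins in plasma, had -6.70, -6.46 and -6.18 in KO hearts against -8.21, -7.96 and -8.54 in KO kidneys, and -7.09, -6.35 and -6.12 in WT hearts against -8.87, -8.12 and -9.05 in WT kidneys. It was well above background on 4 of 12 arrays and was not tested.

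In all, 17 members were called in both genotypes, Mvk in knockout mice alone and Fdft1 and Soat1 in wild type mice alone, but the difference between the knockout and the wild type contrast did not pass for any member. Other genes of the pathway gave the following counts. Of 14 other sterol genes, 4 were higher and 7 lower in KO heart than in KO kidney, and 3 were higher and 6 lower in WT heart than in WT kidney. Acat2, which makes acetoacetyl-CoA, was lower in heart (-3.59 ± 0.38 in knockout, adjusted p = 0.00044; -4.13 ± 0.36 in wild type mice, adjusted p = 3.82e-05). So were the sterol reductase Tm7sf2 (-2.16 ± 0.29 in knockout and -2.40 ± 0.14 in wild type mice), the sterol carrier Stard5 (-2.23 ± 0.23 and -2.19 ± 0.14), the lysosomal lipase Lipa (-1.53 ± 0.29 and -1.38 ± 0.20) and the cholesterol ester hydrolase Nceh1 (-1.30 ± 0.31 and -0.81 ± 0.20). The lipoprotein receptor Scarb1 was higher in heart (1.01 ± 0.21 in knockout and 1.37 ± 0.12 in wild type mice), as was Ch25h, which makes an oxysterol (1.27 ± 0.29 and 1.43 ± 0.25). Called in knockout mice alone were Cyp27a1, a sterol hydroxylase (-1.12 ± 0.17), Npc2, the lysosomal partner of Npc1 (0.80 ± 0.15), and Lbr, a sterol reductase of the nuclear envelope (1.23 ± 0.43, adjusted p = 0.0491). The sterol-binding protein Osbp was called in wild type mice alone (0.57 ± 0.17, adjusted p = 0.0232).

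Of 4 sterol sensors and their targets, 3 were lower in KO heart, and in WT heart 2 were lower and 1 higher. The oxysterol receptor Nr1h3 was lower in heart (-0.89 ± 0.18 in knockout and -0.81 ± 0.13 in wild type mice), as was Lpcat3, an acyltransferase that the receptor induces (-1.54 ± 0.19 and -1.45 ± 0.18). Nr1h2, the other receptor of the pair, was called in knockout mice alone (-0.63 ± 0.21, adjusted p = 0.0399), and Mylip, a ligase that the receptors induce, was higher in heart in wild type mice alone (0.53 ± 0.15, adjusted p = 0.0187). Of 9 fatty acid synthesis genes driven by SREBP1, 3 were lower in KO heart and 4 in WT heart. These were the desaturases Fads2 (-3.02 ± 0.18 in knockout and -3.00 ± 0.14 in wild type mice) and Fads1 (-1.13 ± 0.34 and -0.48 ± 0.14), malic enzyme Me1 (-1.51 ± 0.48 and -2.24 ± 0.20) and, in wild type mice alone, Acly, which supplies acetyl-CoA (-0.99 ± 0.32, adjusted p = 0.0274).

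In hearts, the knockout comparison asks whether loss of the transporter changed these genes. No member passed: 0 of 26 tested, against 0.664% of the 17480 genes tested (116 genes). With the letter as a block, since same-lettered hearts deviated together, 0.315% of all genes (55) and again 0 members passed. The direction was uneven, with 15 of 18 synthesis members higher in KO hearts (median 0.34, beside -0.07 for all genes, of which 42.2% were higher); efflux and storage members were split, 2 higher and 2 lower (median 0.05). At an unadjusted p under 0.05 there were 3 members, against 15.7% of all genes.

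Idi1 had the smallest unadjusted p, with 1.37, 0.82 and 0.12 in KO hearts against -0.03, -0.41 and -0.58 in WT hearts. All KO hearts lay above all WT hearts, by 1.11 ± 0.33 (adjusted p = 0.246). Sqle had 0.40, -0.47 and -1.54 in KO hearts against -1.80, -2.25 and -2.19 in WT hearts, again without overlap, by 1.55 ± 0.47 (adjusted p = 0.251). Sc5d had 1.70, 1.07 and 1.06 against 0.89, 0.66 and 0.75 in WT hearts (0.51 ± 0.21, adjusted p = 0.316), with KO heart a well above the other 2. On the dimmer Sc5d probe the difference was 0.05 and the groups overlapped. Dhcr7 had 1.69, 1.17 and 1.03 in KO hearts against 0.89, 0.78 and 0.83 in WT hearts (0.46 ± 0.20, adjusted p = 0.321), and Fdps 2.48, 1.68 and 1.65 against 1.34, 1.33 and 1.49 in WT hearts (0.55 ± 0.25, adjusted p = 0.33). Abcg1 had 1.76, 1.37 and 0.51 in KO hearts against 0.70, 0.62 and 0.25 in WT hearts, so that KO heart c lay inside the WT range (0.69 ± 0.33, adjusted p = 0.348). On the probes tested, 6 synthesis members (these 5 and Ebp) had every KO heart above every WT heart and none had the reverse. Every KO heart lay above for 9.14% of all genes and below for 13.0%. For Idi1, Dhcr7 and Fdps, as for Sc5d, the groups overlapped on the dimmer probe. KO heart c read -3.34 there for Idi1, -1.94 for Dhcr7 and -4.67 for Fdps, within or below the WT range. Sqle and Ebp had 1 probe each.

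**Figure D2:**
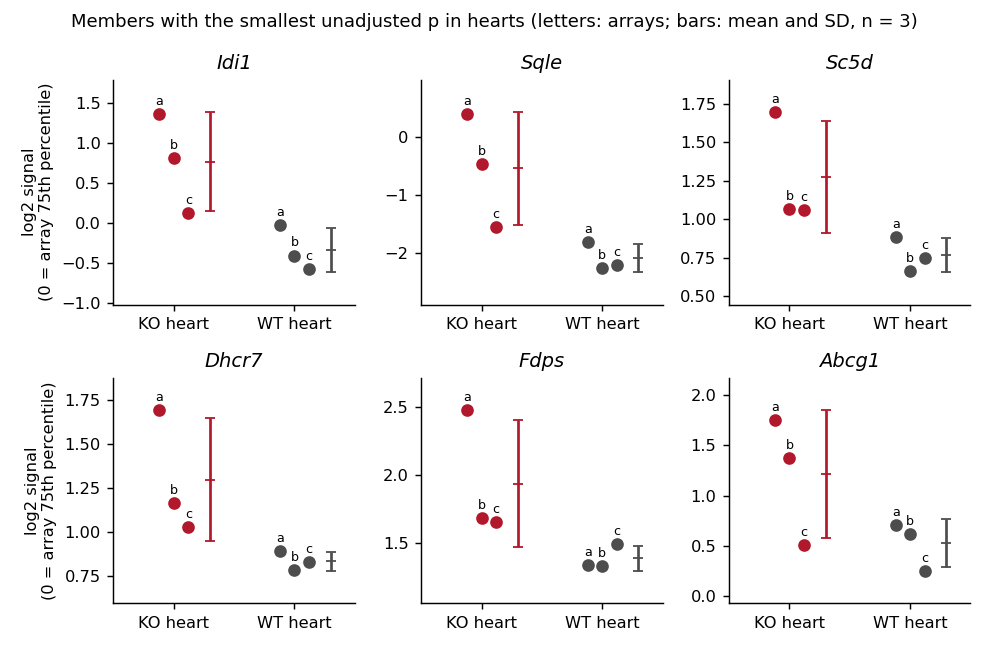
Log2 signal relative to the array's 75th percentile in each KO (left) and WT heart (right) for the 6 members with the smallest unadjusted p in heart; letters name the arrays and bars give mean and SD (n = 3). KO heart a is the highest array in every panel, and KO heart c is the lowest KO heart in every panel.

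KO heart a carried much of this. It held the highest of the 6 heart values for 15 of 18 synthesis members. The median synthesis member lay 0.81 above the WT mean on KO heart a, 0.02 on KO heart b and 0.23 on KO heart c. Without KO heart a, the differences were 0.81 for Idi1 (adjusted p = 0.491), 1.08 for Sqle (adjusted p = 0.47), 0.30 for Sc5d, 0.26 for Dhcr7, 0.28 for Fdps and 0.42 for Abcg1. Without KO heart c, Idi1 (1.43, adjusted p = 0.0245), Sqle (2.05, adjusted p = 0.0155) and Abcg1 (1.04, adjusted p = 0.0368) passed, but so did 12.4% of all genes. With KO heart c alone against the WT hearts, which leaves out both arrays with Xist signal and assumes that the lone array varies like the others, Idi1 differed by 0.46, Sqle by 0.54 and Abcg1 by -0.01. Signals of other cell types also stood out on KO hearts: 6 lung markers on a, and 8 thymus and T cell markers on a and b (values above). The summed signal of 6 proliferation genes was 4.26 and 5.27 on KO hearts a and b. It was 1.95 on KO heart c and 1.37 to 1.80 on WT hearts. Thymus and proliferation genes were highest on KO heart b. On that array the synthesis members lay from -0.70 to 1.62 against the WT mean, with a median of 0.02. Liver markers summed to 2.06 to 2.83 on KO hearts against -1.80 to -0.51 on WT hearts, and 9 of 9 measured ones were above background on each KO heart. The median of 6 adipocyte markers lay 2.74, 0.47 and 1.68 above the WT mean on KO hearts a, b and c. On WT hearts a, b and c it lay at 2.13, -1.83 and -0.16. The part of any of these lists in the sterol values was not tested.

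**Figure D3:**
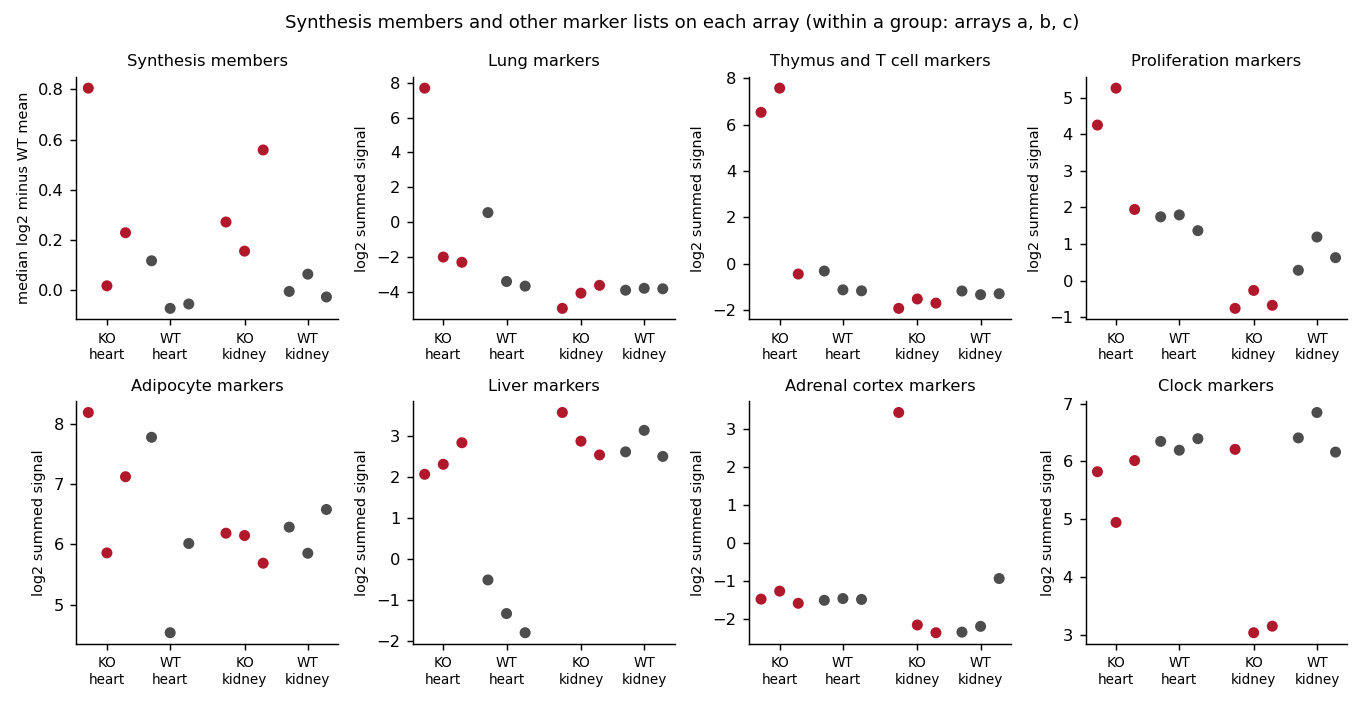
First panel: median over the 18 synthesis members of log2 signal minus the mean of the WT arrays of that tissue. Other panels: log2 of the summed signal of 7 other gene lists on each array, with KO left of WT and arrays in the order a, b, c. KO heart a is highest for synthesis members and lung markers, KO hearts a and b for thymus and proliferation genes, KO kidney a for adrenal markers, and KO kidneys b and c are lowest for clock genes.

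Among the regulators in heart, Srebf1 differed by 0.28 ± 0.26, Srebf2 by 0.22 ± 0.16, Scap by -0.12 ± 0.13 and Insig2 by -0.33 ± 0.17, none passing (lowest adjusted p = 0.363). Abca1 differed by -0.31 ± 0.25, Npc1 by -0.23 ± 0.18 and Soat1 by 0.33 ± 0.22. Synthesis members not named above lay between -0.17 (Fdft1) and 0.52 (Nsdhl) on their brightest probes. Lss read 0.15 on its brightest probe and up to 1.07 on the others. On each of those others every KO heart lay above every WT heart, with KO heart a far above the rest. Stard4 depended on the probe: -0.14 on its brightest, and 0.74 and 0.79 on the others, with SE 0.21 and 0.19. Of the other pathway genes none passed; the smallest unadjusted p belonged to Cyp27a1, which makes an oxysterol (-0.89 ± 0.18, adjusted p = 0.119). Of the 9 SREBP1 targets, 7 were higher in KO hearts (median 0.56). Their arrays followed the fat markers. The summed signal of 6 adipocyte markers was 8.19, 5.86 and 7.12 on KO hearts a, b and c, against 7.77, 4.54 and 6.02 on WT hearts. The summed SREBP1 target signal was 7.49, 5.52 and 7.35 against 7.42, 4.96 and 6.53. The part of fat tissue in these values was not tested.

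In kidneys no member passed either, 0 of 26 tested, against 0.163% of 17164 genes (28 genes). Of the members, 14 of 18 synthesis members were higher in KO kidneys (median 0.27, beside -0.07 for all genes, of which 41.5% were higher), and 3 of 4 efflux, storage and transport members were lower (median -0.36). With normexp background correction the synthesis median no longer lay above that of all genes. On the probes tested, every KO kidney lay above every WT kidney in 9 members, against 8.77% of all genes. In 1 member (Npc1) every KO kidney lay below, against 12.6%. For Fdft1, Fdps, Stard4, Mvk, Sc5d and Srebf2, all among the 9, the groups overlapped on another probe. Unadjusted p was under 0.05 for 5 members, against 13.1% of all genes.

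Fdft1 came first, with 1.32, 0.82 and 1.27 in KO kidneys against 0.37, 0.23 and 0.36 in WT kidneys. The groups were apart, by 0.82 ± 0.19 (adjusted p = 0.144). On its dimmer probe the difference was 0.33 and the groups overlapped. Stard4 had 0.30, 0.85 and 0.57 in KO kidneys against -0.68, -1.14 and -0.08 in WT kidneys (1.21 ± 0.30, adjusted p = 0.164), on its brightest probe. The other Stard4 probes differed by 0.55 and 0.61, through KO kidney a: one read -0.41, -1.89 and -1.43 in KO kidneys against -1.54, -1.93 and -1.90 in WT kidneys, and the other -0.60, -2.17 and -1.70 in KO kidneys against -1.93, -2.08 and -2.29 in WT kidneys. On both of these probes KO kidneys b and c lay within or near the WT range. Fdps had 2.63, 1.60 and 2.18 against 1.51, 1.26 and 1.41 in WT kidneys (0.74 ± 0.27, adjusted p = 0.316), but its other probe differed by -0.66. Srebf1 had 4.02, 3.84 and 4.53 in KO kidneys against 3.71, 3.36 and 3.53 in WT kidneys, with no overlap (0.59 ± 0.22, adjusted p = 0.331). On the efflux side, Npc1 had -0.91, -0.59 and -0.32 in KO kidneys against -0.13, 0.04 and -0.24 in WT kidneys (-0.50 ± 0.20, adjusted p = 0.358), and Soat1 2.54, 1.95 and 2.24 against 3.05, 2.75 and 2.52 in WT kidneys, where KO kidney a touched the WT range (-0.53 ± 0.22, adjusted p = 0.381).

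**Figure D4:**
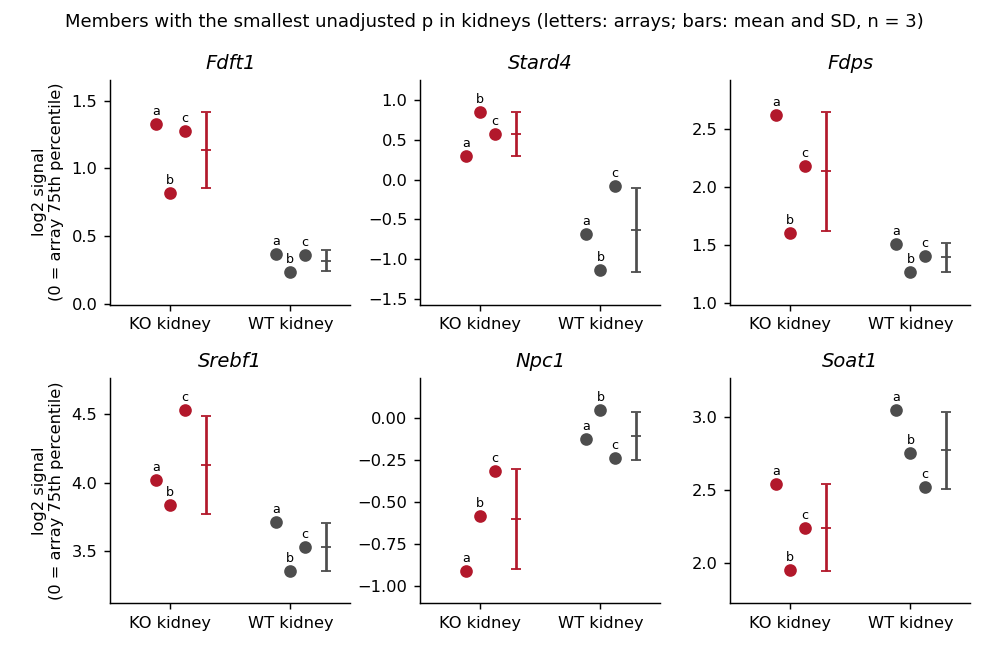
Log2 signal relative to the array's 75th percentile in each KO (left) and WT kidney (right) for the 6 members with the smallest unadjusted p in kidney; letters name the arrays and bars give mean and SD (n = 3). KO kidneys lie above WT kidneys for Fdft1, Stard4, Fdps and Srebf1 and below for Npc1, while Soat1 overlaps.

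Slide 2 held 2 KO and 2 WT kidneys (KO b and c, WT a and b), and KO kidney a was alone on its slide. Within slide 2, Hsd17b7 (1.65, adjusted p = 0.0362) and Stard4 (1.62, adjusted p = 0.0468) were higher in KO kidneys, where 1.48% of all genes passed. Both calls rest on the brightest probe: on the other Stard4 probes given above, the KO and WT kidneys of slide 2 overlapped. With slide as a block in all 6 kidneys they were 1.65 (adjusted p = 0.0341) and 1.62 (adjusted p = 0.0427), with 1.67% of all genes passing. Over all 6 arrays Hsd17b7 had 0.14, 1.41 and 1.27 in KO kidneys against -0.31, -0.32 and 0.60 in WT kidneys (0.95 ± 0.41, adjusted p = 0.397), and its second probe differed by -0.05. Without KO kidney a, the array with adrenal cortex markers and Xist, Fdft1 differed by 0.72 (adjusted p = 0.14), Stard4 by 1.35 (adjusted p = 0.122), Srebf1 by 0.65 and Npc1 by -0.34. The adrenal cortex takes up and makes sterol for steroid hormones. On the brightest probes, KO kidney a was the highest kidney for 5 of 18 synthesis members, and KO kidney c for 8. The part of adrenal tissue in these values was not tested. Clock genes summed to 3.04 and 3.16 on KO kidneys b and c, against 6.21 on KO kidney a and 6.16 to 6.85 on WT kidneys. On all 3 KO kidneys 6 proliferation genes summed to -0.76, -0.27 and -0.68, against 0.28 to 1.19 on WT kidneys, and 5 macrophage markers to 3.94, 4.70 and 4.59, against 4.73 to 5.26 on WT kidneys. Their part in the sterol values was not tested.

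The remaining kidney values were as follows. Srebf2 differed by 0.24 ± 0.15, Scap by -0.08 ± 0.17 and Insig2 by -0.28 ± 0.22. On a dimmer Insig2 probe the difference was 0.28, the opposite direction. Abca1 differed by -0.22 ± 0.23 and Abcg1 by 0.19 ± 0.19. Idi1 and Sqle, first in heart, differed by -0.01 ± 0.54 and 0.02 ± 0.20 in kidney, with Idi1 at 2.17 on KO kidney a against 3.70 and 4.39 on the other KO kidneys. A dimmer second Idi1 probe differed by 0.55 in kidney, so the value near 0 depends on the probe. The synthesis members not named in these paragraphs lay between -0.21 (Hmgcs1) and 0.72 (Insig1) on their brightest probes. Lss read 0.03 on its brightest probe and up to 0.66 on the others, each with every KO kidney above every WT kidney. Of the other pathway genes none passed; Lbr had the smallest unadjusted p (-0.74 ± 0.18, adjusted p = 0.168), followed by Acly (0.59 ± 0.22, adjusted p = 0.327). Of the 9 SREBP1 targets, 8 were higher in KO kidneys (median 0.53), and so were 4 of 4 sterol sensors and their targets (median 0.19).

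Whether the knockout effect itself differed between heart and kidney was tested over all 12 arrays. No member passed, 0 of 26, against 0.635% of 18436 genes (117 genes). There were 4 members with an unadjusted p under 0.05, against 14.6% of all genes. Stard4 changed by -0.14 in heart and 1.21 in kidney, a difference of -1.35 ± 0.39 (adjusted p = 0.18), but on its other probes the difference was 0.19 and 0.18. For Fdft1 the changes were -0.17 and 0.82 (difference -0.99 ± 0.32, adjusted p = 0.209, and -0.21 on its dimmer probe), for Sqle 1.55 and 0.02 (1.53 ± 0.55, adjusted p = 0.25), and for Soat1 0.33 and -0.53 (0.86 ± 0.32, adjusted p = 0.265). Dhcr7 (0.60 ± 0.29, adjusted p = 0.37) and Mvk (-0.54 ± 0.28, adjusted p = 0.4) came next. Without KO heart c, Sqle passed (2.03, adjusted p = 0.00966), as did 7.91% of all genes. Among the other pathway genes none passed, and Lbr differed by 1.57 ± 0.48 (adjusted p = 0.192). The synthesis members split evenly, 9 above and 9 below 0 (median 0.01, beside 0.03 for all genes), and the 4 efflux, storage and transport members had a median of 0.38. A p that misses the threshold does not show that the 2 tissues responded alike.

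**Figure D5:**
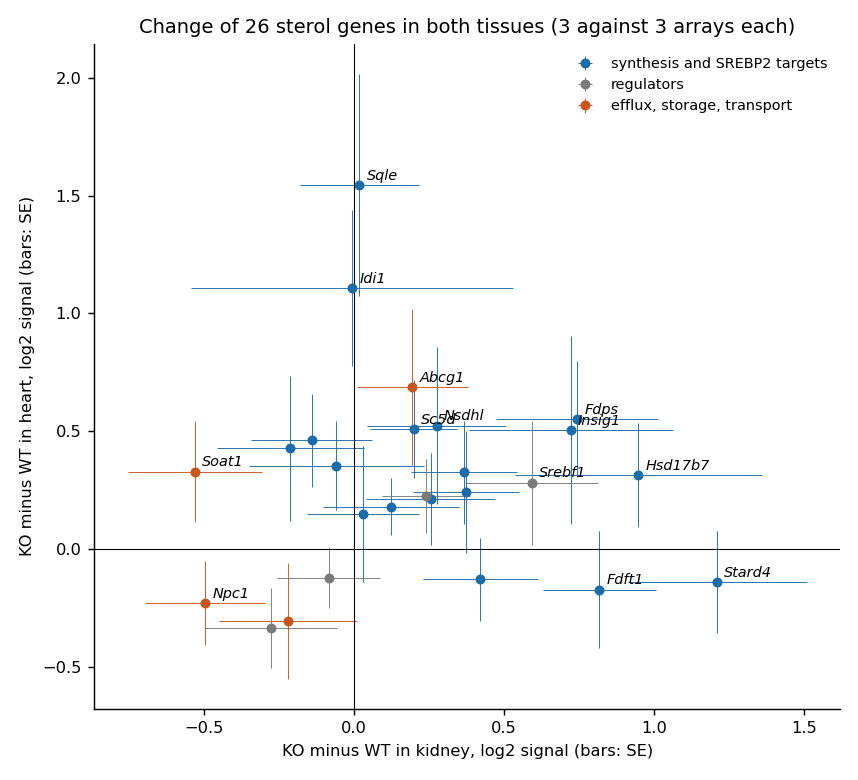
Knockout minus wild type difference in log2 signal in heart (vertical) against kidney (horizontal) for the 26 tested members, with SE bars and colours by role. On the probes tested, Sqle and Idi1 stand high in heart at about 0 in kidney, and Stard4 and Fdft1 lie to the right, below 0 in heart.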

How the data were processed

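Total RNA of 12 tissues was labelled with Cy3 and hybridised to 1-colour Agilent arrays. Each deposited scanner file gives spot intensity, which the authors extracted with Feature Extraction (version 9.5.3.1 in the file headers, 9.1 in the submitters' processing notes); the processed signal is background-subtracted and not scaled between arrays. The authors' deposited table holds log2 values centred per probe on each tissue's median (within 0.01 of 0 for 100% of probes), and served as an alternative, each column read as the array whose values it tracks.

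From the intensity, log2 of the processed signal was taken and each array's 75th percentile subtracted; outlier spots were dropped and the 43379 spots averaged to 41174 probes. The 75th percentile signal lay between 464 and 940, and 59.9% to 70.0% of probes were well above background. The number of arrays limits the precision. Kept probes passed the scanner's background flag on all 3 arrays of at least 1 group compared, and a gene was represented by its brightest kept probe; the probe used for Cyp51 and Nsdhl in the heart comparison, Nsdhl in the wild type tissue comparison and Mvk in the kidney comparison differs from that of the printed array values. Groups were compared with limma 3.58.1 (R 4.3.3, lmFit and eBayes), with p-values adjusted over all genes tested by Benjamini-Hochberg and a call at 0.05, after tests on simulated data. Each p-value sets a group difference against the spread between these samples, moderated across genes by eBayes. No dim-probe value was imputed.

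The members and lists were chosen with earlier results of these data known. Values per array are given for every called member, the 6 members of each comparison with the smallest unadjusted p, and all regulators and efflux members; other pathway genes are named where called or, if none was, for the 2 smallest p. The values of 1 gene that this rule names are not reported here. Same-lettered hearts deviated together across 18436 genes (r = 0.36, 0.18 and 0.24 for a, b and c), same-lettered kidneys did not (0.08, -0.02 and -0.14), and the letters paired no heart with a kidney (-0.05 to 0.05). Alternatives varied scaling, background correction, probe filter, probe choice, letter or slide as a block, threshold, arrays left out and the source of values. RefSeq promoters were searched with Python. Probe positions in the files are on mm7.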

Additional observations from a re-analysis of the deposited data

How the results depend on the processing

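In heart, kidney and the interaction, member calls stayed at 0 under every alternative that gave a value except where stated: 3 in heart (Abcg1, Idi1, Sqle) and 1 in the interaction (Sqle) without KO heart replicate c, and 2 in kidney (Hsd17b7, Stard4) with slide as a block or within slide 2. Leaving out each array gave 0 to 3 member calls in heart, 0 to 0 in kidney and 0 to 1 in the interaction, 15 to 17 between tissues in knockout and 18 to 21 in wild type mice. Normexp background correction left 10 of the 18 calls in knockout mice (17.4% of all genes), losing Abca1, Abcg1, Npc1, Dhcr7, Mvk, Sc4mol, Scap and Srebf2. It moved the synthesis median in kidney to 0.067, beside 0.083 for all genes, so the synthesis members no longer lay above the rest. Array median scaling shifted the median of all genes in heart to -0.23 and moved the efflux median to 0.17 in the interaction, 0.51 between tissues in knockout and 0.52 in wild type mice; without a filter the last was 0.79 (Lcat then counted). With the mean of all probes the synthesis median between wild type tissues was -1.98. In the leave-one-out fits the efflux median of the interaction ran from 0.16 to 0.51. The replicate block of letters changed the count only between wild type tissues (18 members, without Npc1) and left the heart synthesis median at 0.34; it took the genes called in heart to 55, in kidney from 28 to 2 and in the interaction from 117 to 55. Genes called in heart ran from 17 (normexp) to 295 (without the arrays with Xist signal) and from 26 to 2255 with an array left out, in kidney from 0 (normexp; 596 genes had an unadjusted p under 0.05) to 287 and from 1 to 94, and in the interaction from 0 (normexp; 1069 genes) to 249 (threshold 0.10) and from 40 to 1497. Leaving out single arrays between KO tissues lost only Abca1, Abcg1, Npc1 and Mvk, and array median scaling lost Abca1 and Npc1. Between KO tissues 9 members and between WT tissues 17 were called under every alternative.

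Signs turned only for differences that had not passed, other than Fdft1 between wild type tissues. With the mean of all probes this was Fdft1 -0.24 and Sc5d 0.17 (wild type tissues), Fdps 0.44 and Soat1 0.14 (knockout tissues), Stard4 0.46 (heart), and Cyp51 0.068, Idi1 0.27, Insig2 0.0042 and Nsdhl -0.68 (kidney). Array median scaling gave Lss -0.017 (heart), Idi1 0.040 (kidney), and Insig2 -0.090, Pmvk -0.22 and Sc5d -0.25 (knockout tissues). Normexp gave Ebp -0.17, Sqle -0.24 and Srebf2 -0.042 (kidney) and Fdps 0.039 and Srebf1 0.24 (knockout tissues). Quantile scaling gave Cyp51 0.032, Idi1 0.080 and Scap 0.087 (kidney), Fdps 0.13 (wild type tissues) and Srebf1 0.12 (knockout tissues). Slide as a block and within slide 2 gave Ebp -0.078, Idi1 0.60 and Lss -0.13 (kidney). Without the arrays with Xist signal, Abcg1 was -0.014, Fdft1 0.11, Lss -0.082, Soat1 -0.033, Srebf2 -0.00087 and Stard4 0.14 (heart), Idi1 0.62 and Lss -0.094 (kidney), and Fdft1 0.092 and Sc5d -0.11 (knockout tissues). Leaving out single arrays, Fdft1 ran from -0.32 to 0.093, Lss from -0.15 to 0.34, Mvk from -0.26 to 0.025 and Stard4 from -0.28 to 0.0072 (heart); Cyp51 from -0.39 to 0.14, Ebp from -0.0083 to 0.35, Idi1 from -0.49 to 0.62, Lss from -0.094 to 0.51, Scap from -0.20 to 0.0019 and Sqle from -0.13 to 0.12 (kidney); Fdps from -0.072 to 0.051 and Insig1 from -0.50 to 0.022 (wild type tissues); and Fdps from -0.47 to 0.044, Pmvk from -0.11 to 0.36, Sc5d from -0.13 to 0.19 and Srebf1 from -0.27 to 0.16 (knockout tissues). The cause was not tested. A slide fit was not run for heart, where slide and genotype coincide, nor for the interaction, where it could not be fitted.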
